A study of Homo sapiens with 6 samples.

Results

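H19 and IGF2 are neighbouring imprinted genes on human chromosome 11, and CpG methylation was examined across both and the stretch between them by whole-genome bisulfite sequencing of H9, a long-established line of human embryonic stem cells. The members are these 2 genes, of 51425 genes with a tested promoter, and the interval taken for them is chr11:2010001-2175000 of GRCh37. It spans 165 kb with 3943 CpGs, and 240 of its 500-bp tiles were tested, of 1982370 tiles over chromosomes 1 to 22 and X. The genes and the interval were set by name and position, not by a cut on their methylation, though earlier results of these data were known. Conventional and reset cells gave 3 libraries each. Conventional H9 cells were cultured on mouse embryonic fibroblasts in medium with KSR and bFGF. Reset cells had been transfected with NANOG and KLF2, switched on with doxycycline, and were then moved without doxycycline to t2iL+Gö (LIF with PD0325901, CHIR99021 and Gö6983, an inhibitor of protein kinase C), also on these feeders. Both were kept at reduced oxygen. Whether the reset libraries came from separate resettings is not given in the sources used here. The tests thus speak for these libraries only, and resetting cannot be told apart from the history of the culture.

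In an imprinted region the copies inherited from the mother and the father carry different marks. H19 makes a long noncoding RNA and IGF2 makes a growth factor of the fetus, insulin-like growth factor II. H19 is used from the maternal copy and IGF2 from the paternal copy in most fetal tissues. The switch is a control region upstream of H19 that is methylated on the paternal copy only. On the unmethylated maternal copy the zinc finger protein CTCF binds it and insulates IGF2 from enhancers that lie beyond H19. A level near 50% is what a mark on 1 of the 2 copies gives, although a mixture of cells gives it too. The deposited counts link no call to a read or to a copy, so these were not separated here.

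Both genes are read from the minus strand, so upstream positions have higher coordinates. The annotation (GENCODE release 44) holds 31 H19 transcripts, and the largest group, of 15, starts between 2018416 and 2019105. Its most common start, 2019072, is taken here as the H19 start. A further 12 start near 2022936, inside the control region, and 1, named canonical by the annotation, starts at 2025782, beyond it. The control region, 2 to 5 kb upstream of the H19 start, is chr11:2021073-2024072 and holds 127 CpGs. The core of the CTCF motif was searched on both strands as CCGCG, any base, GG, any base, GGCAG. It matched 5 times in the interval, of 262 matches in chromosomes 1 to 22 and X. Of the 5 matches 4 lay in the control region and the fifth just beyond it. In the genome 0.0269% of the windows of 3000 bases held a match. The search takes a single fixed form of the core, so this share is that of the form and not of CTCF sites. The matches are given as positions, and no enrichment was tested. The 5 are shown because each holds 3 or 4 of the CpGs whose methylation is described below. They are printed 5′ to 3′ on the minus strand with the core in capitals, from GRCh37, at 2.13, 2.94, 4.38, 4.78 and 5.18 kb upstream of the H19 start.
Match 1, chr11:2021198-2021211: tggCCGCGCGGCGGCAGtgc
Match 2, chr11:2022010-2022023: tggCCGCGTGGCGGCAGtgc
Match 3, chr11:2023443-2023456: tggCCGCGCGGCGGCAGtgc
Match 4, chr11:2023844-2023857: tggCCGCGCGGCGGCAGtgc
Match 5, chr11:2024249-2024262: tggCCGCGCGGCGGCAGtgc

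A pair of longer stretches shows how closely the measured CpGs sit, with each CpG in capitals, on the minus strand of GRCh37. The upper is from the control region around match 4 and has 17 CpGs in 240 bases. The lower is from the H19 promoter and has 19 CpGs in 250 bases.
Control region, chr11:2023731-2023970: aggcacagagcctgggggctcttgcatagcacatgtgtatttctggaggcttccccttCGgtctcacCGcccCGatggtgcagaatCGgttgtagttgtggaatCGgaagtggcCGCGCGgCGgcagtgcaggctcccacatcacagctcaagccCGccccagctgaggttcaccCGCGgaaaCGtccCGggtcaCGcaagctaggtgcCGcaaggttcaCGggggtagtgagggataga
H19 promoter, chr11:2019501-2019750: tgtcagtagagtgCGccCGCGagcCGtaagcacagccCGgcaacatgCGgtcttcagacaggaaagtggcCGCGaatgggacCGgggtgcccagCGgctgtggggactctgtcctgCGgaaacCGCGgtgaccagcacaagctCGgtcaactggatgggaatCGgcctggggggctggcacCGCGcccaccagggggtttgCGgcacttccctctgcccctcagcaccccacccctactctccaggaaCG
In the stretch around match 4 the conventional libraries were methylated at 68.8, 60 and 23.3% of the calls and the reset libraries at 2.27, 1.75 and 0%. In the stretch of the H19 promoter the values were 64.5, 19.0 and 28.6% in conventional and 0, 0 and 4% in reset cells. In both stretches all reset libraries were lower than the lowest conventional library. Such a lack of overlap was common in the genome. The groups overlapped in 4.23% of all tested tiles, and in 19.8% of the tiles near 50% in conventional cells. It does not by itself set these stretches apart.

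The level of a region is the percentage of methylated calls over all its CpGs in a library. The conventional libraries held 9018 to 10070 calls in the interval and the reset libraries 8506 to 9393, or 2.16 to 2.55 calls per CpG. This is 0.683 to 0.854 times the mean of the autosomes in the same library. Single CpGs thus rest on a few reads, and calls from the same read are not independent.

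The control region lost nearly all of its methylation. Its level was 56.7, 48.4 and 29.5% in the conventional libraries and 2.50, 1.65 and 0.862% in the reset libraries. The means were 44.9% ± 13.9 (SD, n = 3) and 1.67% ± 0.819 (SD, n = 3), a fall of 43.2 percentage points. In the reset libraries 16 of 936 calls were methylated, against 427 of 941 in the conventional libraries. The groups did not overlap. The exact permutation test, two-sided, gave p = 0.1, and 3 libraries against 3 cannot give less. The 3 conventional libraries differed more from each other here than in the interval around it, where they lay at 75.5, 74.9 and 74.1%. They had 254 to 372 calls each in the control region and 8764 to 9698 around it. Whether the wider spread follows from the fewer calls was not tested.

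The rest of the interval kept about as much as it lost. Outside the control region the level fell from 74.9% ± 0.705 (SD, n = 3) to 35.2% ± 0.763 (SD, n = 3), with reset libraries at 35.9, 34.4 and 35.1%. In percentage points the control region did not fall detectably further than the rest. It began at 44.9% and could not fall by more than that, while the rest fell by 39.7 points. Percentage points therefore cannot decide whether it lost more than the rest. The difference between the 2 within a library averaged -30.0 points in conventional cells and -33.5 points in reset cells (p = 0.7, two-sided exact permutation test). The change of this difference, -3.50 points, ran from -10.8 points without conventional library 3 (p = 0.1) to 2.09 points without conventional library 1 (p = 0.7), both by the exact permutation test. It was -8.86 points as a mean over CpGs and -9.22 points for a region 1 to 6 kb upstream. Over CpGs with at least 3 calls in every library it was -8.26 points. Counted from the canonical H19 start it was 7.30 points, for a window that lies wholly beyond the control region. As a share the 2 were apart, since the control region lost 96.3% of its conventional level and the rest 53.1%. The control region stood at 75.1, 64.6 and 39.8% of the level around it in the conventional libraries and at 6.95, 4.80 and 2.46% in the reset libraries (p = 0.1, two-sided exact permutation test). This ratio was chosen once the levels were known.

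**Figure D1:**
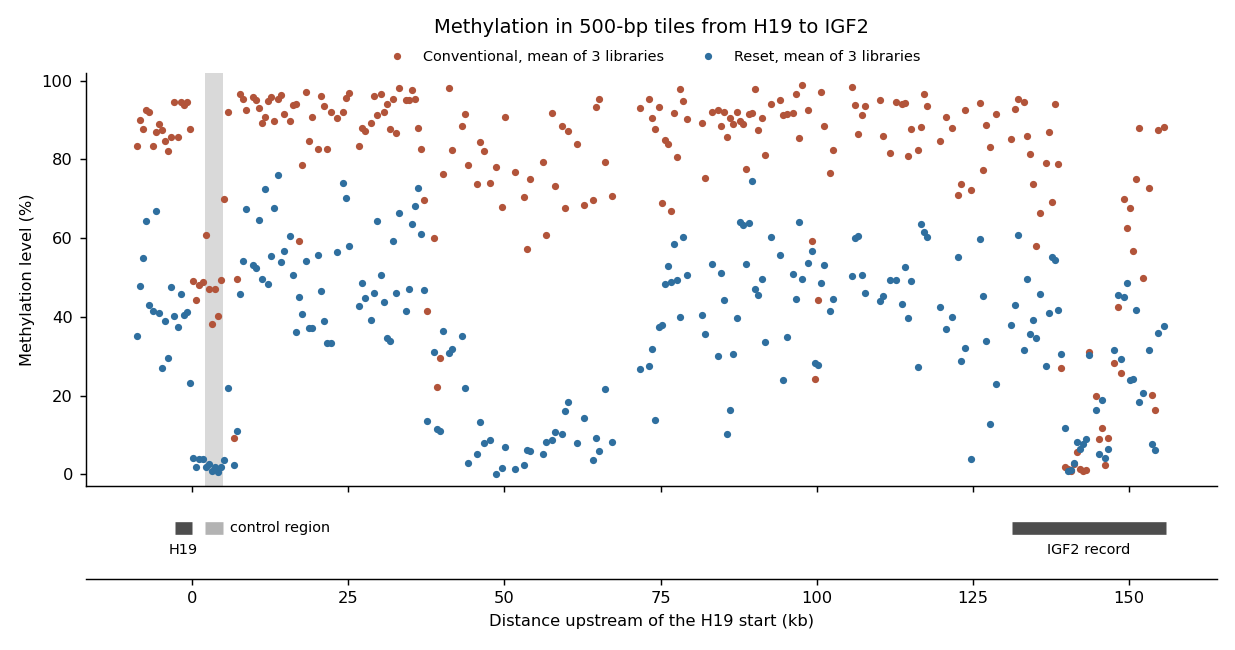
Methylation level (%) of each tested 500-bp tile against the distance of its centre upstream of the H19 start (kb), as the mean of 3 conventional and of 3 reset libraries; the grey band is the control region and the dark bars are H19 and the IGF2 record within the interval. Of the 240 conventional tiles 157 are above 80%, and lower ones lie upstream of H19, in IGF2 and at some places between. Reset tiles are below 5% in the first 5 kb upstream of H19 and in some IGF2 promoter tiles. At about 45 to 65 kb they are mostly below 10%, and several there are below 5% as well.

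Tiles near 50% in conventional cells, taken as a mean of 35 to 65%, numbered 23 of the 240. Of these, 11 lay upstream of H19, 5 in the IGF2 record and 7 elsewhere. All 11 upstream of H19 fell to between 0.595 and 10.96% in reset cells, while the 5 in IGF2 ended between 20.8 and 48.7%. By the quasi-binomial test with adjustment over all tiles, 19 of the 23 were lower and 0 higher in reset cells (also 0 higher by Fisher's exact test on pooled calls). The share called lower was 83.2% among the 66016 tiles of the genome chosen by the same levels, and 95.9% among all tiles, so being lower does not set these 23 apart. Their reset levels had a median of 8.22%, with 12 of the 23 below 10%. Over all tiles near 50% in the genome the reset median was 18.1% and 27.7% were below 10%. The lower median in the interval depended on the choice of tiles. It was 19.6% with tiles shifted by 250 bp, 15.2% for tiles at 25 to 75% and 13.5% without conventional library 3.

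The 23 tiles were not equally near 50% in every conventional library. In 5 of them all 3 conventional libraries lay between 35 and 65%, and the SD between conventional libraries had a median of 11.4 points. The medians over the 23 tiles were 53.6, 49.2 and 50% in the conventional and 8.0, 9.52 and 8.0% in the reset libraries. The conventional and the reset libraries overlapped in 5 of the 23, and in 19.8% of the tiles near 50% in the genome.

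The longest run of such tiles began at the H19 start. It held 10 adjacent tiles, chr11:2019001-2024000 with 218 CpGs, with means of 38.2 to 60.7% in conventional and of 0.595 to 4.13% in reset cells. Over these 10 tiles single conventional libraries gave levels of 10.5 to 90.9% and single reset libraries of 0 to 7.50%, on 14 to 124 calls per tile and library. All 10 were called lower, with adjusted p of 1.87e-06 or less in the quasi-binomial test, and in none did the groups overlap. For comparison, 83.2% of the tiles near 50% in the genome were called lower and 19.8% overlapped. Of the 59596 runs of tiles near 50% in the genome 2 reached 10 tiles, and in 1 of these, the run upstream of H19, all tiles ended below 5%. The length of runs was looked at, and the bounds of 10 tiles and 5% were set, once the levels were known. This run holds 10 tiles and its highest reset mean is 4.13%, so it was bound to meet both. A run breaks at any tile with under 10 calls in a library.

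The run starts in the H19 promoter and ends at the far edge of the control region. The tile over the start itself, at 2019001, was methylated at 57.9, 28.6 and 60.8% in the conventional and 6.52, 5.88 and 0% in the reset libraries. The next 3 tiles, at 2019501, 2020001 and 2020501, were the most even in conventional cells. They had means of 44.4% ± 6.16, 48.0% ± 5.08 and 48.8% ± 3.53 (SD, n = 3), and fell to 1.81% ± 2.11, 3.78% ± 3.26 and 3.87% ± 3.61 (SD, n = 3). Together the 90 CpGs of the first 2 kb upstream of the start had 46.2, 48.0 and 50.9% in the conventional and 2.44, 2.64 and 3.14% in the reset libraries. This stretch lost 94.3% of its conventional level.

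Inside the control region the conventional libraries were less alike. The tile at 2021001, which holds match 1, had 67.3, 90.9 and 24.0% in the conventional and 4.41, 1.28 and 0% in the reset libraries. The tile at 2021501 had 70.2, 60.3 and 10.5% before and 5.71, 0 and 1.85% after. In both it was the third conventional library that was lowest. The tiles at 2022001, 2022501, 2023001 and 2023501 had conventional means of 38.2, 47.1, 40.2 and 49.4% and reset means of 0.775, 1.91, 0.595 and 1.73%. The third conventional library was again the lowest in 3 of these 4 and the highest in the tile at 2023001, at 55.0%.

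**Figure D2:**
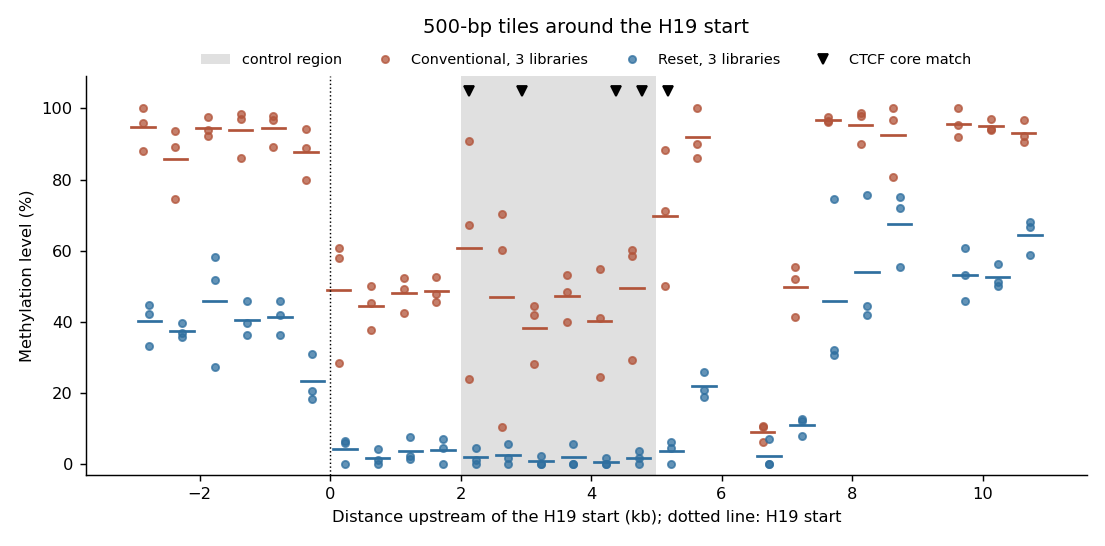
Methylation level (%) of 500-bp tiles in each of the 6 libraries (points) with group means (short lines), against the distance upstream of the H19 start (kb); triangles mark the CTCF core matches. From the H19 start to about 5 kb upstream the conventional libraries spread around 50% and the reset libraries lie between 0 and 7.50%, whereas within H19 and beyond 7.5 kb reset levels are higher.

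The low stretch did not end sharply in conventional cells. Just past the control region the tile at 2024001, which holds match 5, had 88.4, 71.2 and 50% and fell to 0, 6.25 and 4.55%. The tile at 2024501 went from 92.0% ± 7.17 to 21.9% ± 3.63 (SD, n = 3). The tile at 2025501, at the start of the canonical H19 transcript, was low in both, with 10.6, 6.25 and 10.4% against 0, 6.98 and 0%. Its groups overlapped, and the call (adjusted p = 0.0359, quasi-binomial test) is on a difference of 6.79 points. The last tile near 50% on this side, at 2026001, fell from 49.7% ± 7.33 to 11.0% ± 2.59 (SD, n = 3).

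The CpGs of the CTCF cores fell with the region around them. In the 4 matches of the control region 54 of 97 calls were methylated in the conventional and 1 of 103 in the reset libraries. Per library the 15 CpGs were at 57.9, 68.2 and 45.9% in conventional and at 0, 1.85 and 0% in reset cells. The other 112 CpGs of the control region were at 56.6, 46.6 and 27.3% and at 2.79, 1.62 and 0.943%. In each conventional library the cores were thus the higher, on few calls. Over the summed conventional calls matches 1 to 4 were at 55.2, 75, 48 and 42.1%, in tiles with means of 60.7, 38.2, 40.2 and 49.4%. At match 5 there were 19 methylated of 27 calls in conventional and 0 of 4 in reset cells, too few to give a level. Binding of CTCF was not measured here.

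Of the CpGs from the H19 start to 5 kb upstream, 139 of 217 had at least 5 calls in each group when its libraries were summed. Of these 139, 130 were between 20 and 80% methylated in conventional cells, 6 below 20% and 3 above 80%. In reset cells 118 of the 139 had no methylated call and 2 were above 20%. These counts sum libraries that differed within the same tiles, on a median of 8 calls per CpG and group, and the other CpGs of the stretch had too few calls. In the interval outside this stretch 547 of 2145 CpGs were between 20 and 80% in conventional cells, and 316 had no methylated call in reset cells.

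H19 itself was highly methylated in conventional cells and kept an intermediate level in reset cells. Its body, chr11:2016396-2018572, had 94.3, 88.7 and 94.3% in the conventional and 43.2, 36.3 and 41.5% in the reset libraries. The fall of 52.1 points had an adjusted p = 6.64e-11 in the quasi-binomial test over all gene bodies, where 97.1% were called lower. Taken from the canonical start, at 2025782, the body takes in the control region as well, and then went from 63.4% ± 6.47 to 13.2% ± 1.70 (SD, n = 3). MIR675, a microRNA made from H19, lies at chr11:2017989-2018061, and the tile that holds 61 of its 73 bases fell from 94.6 to 41.4%. MIR483, a microRNA inside IGF2, lies at chr11:2155364-2155439, in a tile with too few calls to be tested. The promoter of H19, 1000 bp before to 500 bp after its start, had 65.7, 48.6 and 51.8% in the conventional and 5.63, 6.80 and 8.99% in the reset libraries. It was lower in reset cells with an adjusted p = 1.64e-09 over all promoters, of which 83.1% were called lower. The promoter window of the start at 2022936, which lies within the control region, fell from 41.9% ± 6.10 to 1.38% ± 0.797 (SD, n = 3). That of the canonical start, at 2025782, fell from 36.5% ± 2.76 to 12.8% ± 3.96 (SD, n = 3).

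At its main promoters IGF2 was low in both states. The annotation gives 10 IGF2 transcripts with 5 groups of starts, at 139.5, 141.5, 143.4, 151.7 and 160.5 kb upstream of the H19 start, the last of them outside the interval. The promoter of the canonical transcript, with its start at 2160619, was unmethylated in both states, with 4.04, 2.37 and 0.746% in the conventional and 5.46, 8.40 and 2.98% in the reset libraries. The difference of 3.23 points was not past the threshold (adjusted p = 0.0909, quasi-binomial test), and the groups overlapped. It passed without conventional library 1 (4.06 points, adjusted p = 0.0463) and without reset library 3 (4.55 points, adjusted p = 0.0179), and also with the replicate number as a block (adjusted p = 0.0386). The promoters at 2158535 and 2162468 were also low. They had 6.78% ± 3.15 and 10.4% ± 2.19 (SD, n = 3) in conventional cells and 10.0% ± 0.595 and 13.0% ± 3.18 (SD, n = 3) in reset cells, and neither difference passed the threshold (adjusted p = 0.199 and 0.392). That at 2158535 passed without conventional library 3, at a rise of 5.03 points (adjusted p = 0.041). Among promoters of the genome that began below 20%, 47.1% were called lower and 9.29% higher, and among tiles below 20% the share called lower was 14.2%.

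The outer promoters of IGF2 were lower in reset cells. That at 2170809 had 61.3, 56.7 and 74.0% in the conventional and 24.5, 24.0 and 32.6% in the reset libraries (adjusted p = 5.71e-06, quasi-binomial test). That at 2179621 fell from 90.1% ± 2.19 to 41.8% ± 0.598 (SD, n = 3). The IGF2 body, chr11:2150347-2160119, had 66.2, 57.8 and 61.0% in the conventional and 34.0, 31.7 and 30.6% in the reset libraries, a fall of 29.6 points (adjusted p = 3.42e-10). It takes in the CpG-rich exons that were unmethylated in both states. Its last exon alone, chr11:2150347-2154453, fell from 83.6% ± 5.01 to 41.8% ± 2.65 (SD, n = 3).

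**Figure D3:**
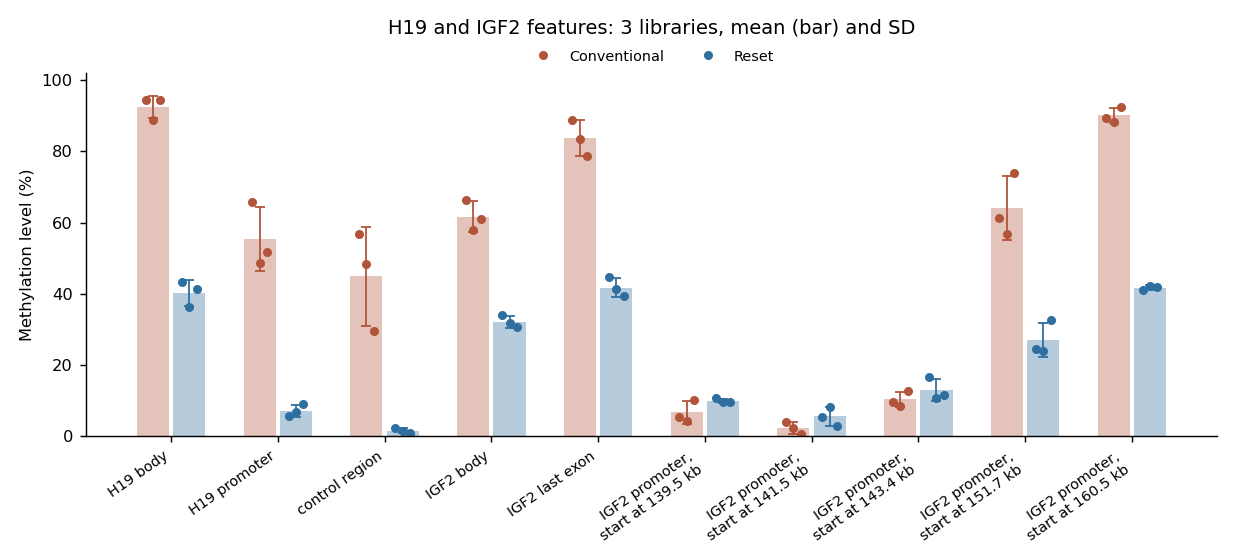
Methylation level (%) of the H19 and IGF2 features, with 3 libraries as points, the mean as a bar from 0 and the SD as a line; IGF2 promoters are named by their distance upstream of the H19 start (kb). The control region and the H19 promoter end below 10% in every reset library, the bodies stay between 30 and 45%, and the IGF2 promoters at 139.5, 141.5 and 143.4 kb are low in both states.

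The tiles that rose were all in this promoter cluster of IGF2. In the interval 215 of the 240 tiles were called lower, 3 higher and 22 neither, against 95.9% of all tiles called lower and 0.737% called higher. These 3 began below 20%, where 3 of 15 tiles of the interval and 20.7% of the tiles of the genome were called higher, so this share is near that of low tiles in the genome. At 2162001 the level rose from 0, 0 and 2.92% to 11.6, 5.56 and 9.68% (adjusted p = 7.42e-04, quasi-binomial test). At 2161501 it rose from 0, 1.41 and 1.03% to 7.59, 13.0 and 2.67%, with no overlap but a spread of 5.19 points (SD, n = 3) in reset cells, and a rise of 6.96 points that was 4.32 points without reset library 2. At 2161001 it went from 0, 1.79 and 1.85% to 1.16, 14.8 and 3.26% (adjusted p = 0.025), which rests on the second reset library, since without it the change was 0.999 points (adjusted p = 0.484). The call was also lost when any 1 of the conventional libraries was left out, at changes of 4.60 to 5.53 points. The 3 tiles lie next to each other in exons of IGF2, and in the upper pair also of IGF2-AS, an antisense transcript. The promoter of IGF2-AS was called higher as well, at 1.56% ± 0.637 against 5.94% ± 3.08 (SD, n = 3), and it shares its CpGs with these tiles. Its rise of 4.38 points was 2.60 points without reset library 2 (adjusted p = 0.0252), and it was not called in a window 250 bp before to 50 bp after its start (6.72 points, adjusted p = 0.121). Among all promoters 2.87% were called higher.

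Intermediate tiles of IGF2, named after their values were seen, behaved in several ways. Of the 5 near 50% in conventional cells 4 were called lower, and in 3 the groups did not overlap. Among the tiles near 50% in the genome 83.2% were called lower and 19.8% had groups that overlapped, so these counts are not particular to IGF2. In the exons near the end of the gene, at 2154001, the libraries went from 77.6, 57.6 and 39.1% to 48.6, 38.7 and 17.0%, and overlapped. This call was lost without conventional library 1 or 2 or reset library 2 or 3, at changes of -25.3 to -13.6 points. Upstream of the promoter cluster the tile at 2167001 had 37.9, 55.0 and 34.5% in conventional and 48.3, 39.5 and 48.6% in reset cells, with no call (adjusted p = 0.611). Its change ran from -0.999 points without conventional library 3 to 9.26 points without conventional library 2. The tile at 2168501 went from 55.9, 72.1 and 60% to 48.6, 43.5 and 54.1% (adjusted p = 0.0442), and lost its call without conventional library 2 or 3 or reset library 1 or 2, at changes of -15.3 to -9.24 points. The tiles at 2169501 and 2171001 fell further, to 24.1% ± 12.6 and 20.8% ± 5.56 (SD, n = 3), though that at 2171001 had no call when its dispersion was estimated on its own. None of these tiles of IGF2 reached the levels below 5% that were seen upstream of H19.

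**Figure D4:**
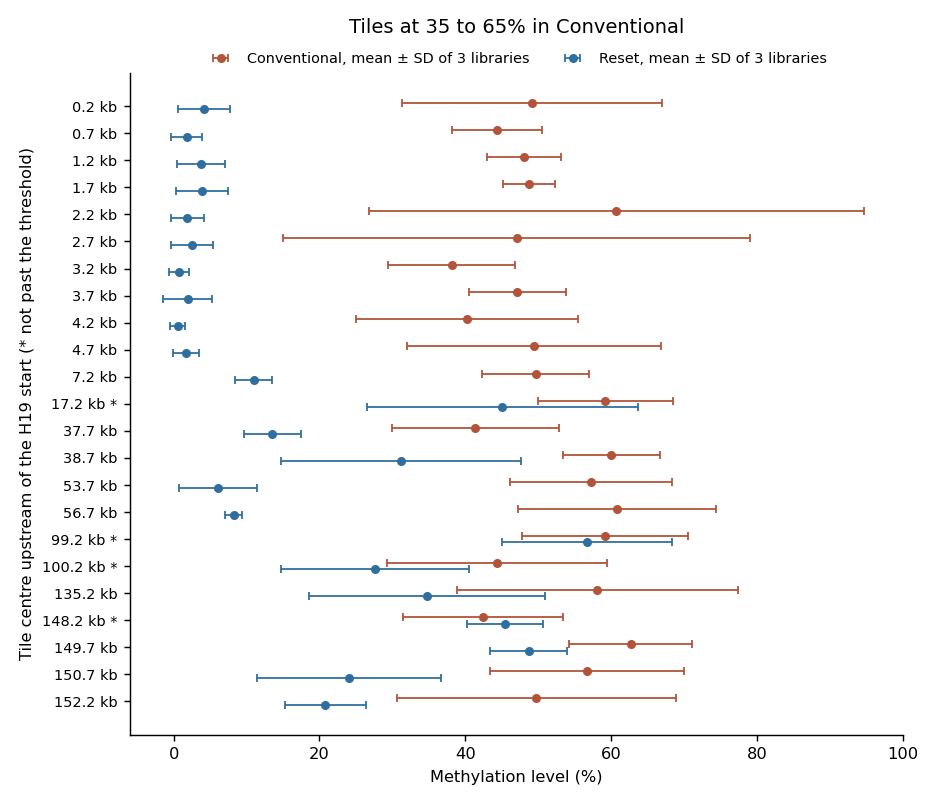
The 23 tiles at 35 to 65% in conventional cells, in order of their distance upstream of the H19 start (kb), with mean and SD of 3 conventional and 3 reset libraries on an axis of methylation level (%). The 10 tiles from 0.2 to 4.7 kb end at 0.595 to 4.13% in reset cells, and the 4 tiles marked with an asterisk did not pass the threshold.

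Between the control region and IGF2 the level fell from 85.0% ± 0.087 to 40.4% ± 1.65 (SD, n = 3), and the 2370 CpGs there gave 167 tested tiles, with 161 called lower, a share near the 95.9% of all tiles. Of the 7 tiles near 50% outside H19 and IGF2 4 were called lower, against 83.2% of the tiles near 50% in the genome. The tile at 2056501 went from 41.4% ± 11.4 to 13.5% ± 3.91 (SD, n = 3). The tile at 2057501 went from 60, 66.7 and 53.3% to 50, 23.5 and 20% (adjusted p = 0.0207), and lost its call without conventional library 2 or reset library 2 or 3, at changes of -25.5 to -23.2 points. That at 2119001 had no call, at 44.4% ± 15.1 and 27.7% ± 12.9 (SD, n = 3), but was called lower without conventional library 1 (-25.2 points) or reset library 2 (-24.0 points) and by Fisher's exact test on pooled calls (adjusted p = 0.0269). The tile at 2118001 had 59.2% ± 11.4 before and 56.7% ± 11.6 after, and that at 2036001 had 59.2% ± 9.27 and 45.1% ± 18.6 (SD, n = 3), with no call for either. Their changes were 0.037 and -4.08 points without reset library 2, and -9.10 and -22.5 points without reset library 3. The tiles at 2072501 and 2075501 dropped to 6.11% ± 5.36 and 8.22% ± 1.21 (SD, n = 3).

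These last 2 belong to a wider trough in reset cells. In windows of 10 kb the reset level was 15.9% ± 3.22 at 2060001-2070000, 8.30% ± 0.197 at 2070001-2080000 and 12.3% ± 1.98 at 2080001-2090000 (SD, n = 3). Conventional cells had 82.3, 77.4 and 78.6% there, so 80.7, 89.3 and 84.4% of the level was lost. The windows on either side ended at 43.7% ± 1.81 and 39.5% ± 3.50 (SD, n = 3). Within this interval losses of over 80% were thus measured here as well as at the control region, from high levels here and from intermediate levels there. Levels below 5% were seen in the trough too. Its tile at 2067501, named after its values were seen, went from 78.0% ± 5.26 (SD, n = 3) to 0% in each reset library, on 15 to 20 calls. The trough was poor in CpGs, with 10.4, 7.2 and 5.1 per kb, whereas the 10-kb windows holding H19 and the control region had 41.1 and 35.5 per kb. No annotated gene lies in it.

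**Figure D5:**
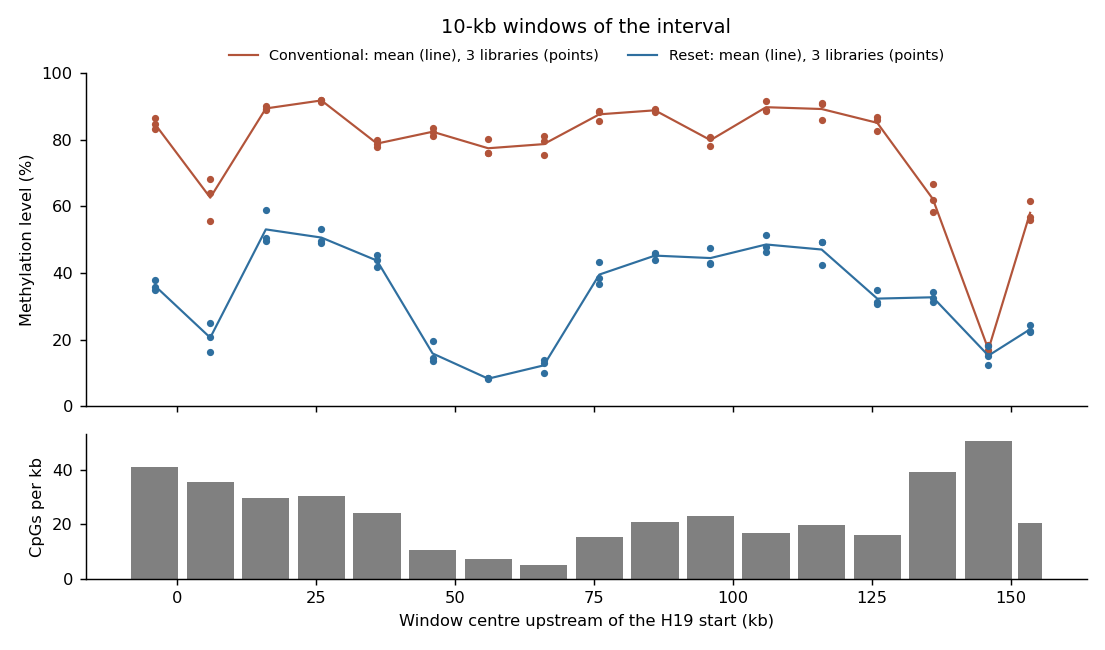
Methylation level (%) in 10-kb windows of the interval (upper, 3 libraries as points and means as lines; the last window is 5 kb) and CpGs per kb in the same windows (lower), against the distance upstream of the H19 start (kb). Reset levels fall to 8.30 to 15.9% in 3 CpG-poor windows between about 41 and 71 kb, where conventional levels are 77.4 to 82.3%.

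Tiles that began high show the same range. Among the 157 tiles over 80% in conventional cells 156 were called lower, against 99.9% of such tiles in the genome, and their reset median was 45.8%, against 34.8% over such tiles of the genome. The 5 with the lowest reset level, at 2065501, 2069001, 2076501, 2080501 and 2084001, all lay in the trough and ended at 5.96 to 8.60%. The 5 with the highest, at 2030501, 2032501, 2043001, 2055001 and 2108501, ended at 72.5 to 75.9%. Of these, the tile at 2030501 lost its call without conventional library 2 or 3 or reset library 1 or 3 (changes of -18.1 to -13.6 points), and that at 2055001 without reset library 1 (-10.4 points). By CpG number, the 12 of these tiles with 1 to 5 CpGs had a reset median of 18.1% and the 15 with 21 or more had 47.5%. Over the genome these medians were 28.1 and 43.0%.

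Other genes of the same pathway were looked at through their promoters. IGF2 signals through the receptors IGF1R and INSR, is cleared by IGF2R, and is held in the circulation by the IGFBP proteins. Of 15 promoters of this axis 5 were lower, 3 higher and 7 neither, against 83.1% lower and 2.87% higher over all promoters. The median change was 0.31 points, against -43.1 points over all promoters. The 5 lower became 3 without reset library 1 or reset library 3, and 2, with 5 rather than 3 higher, with 500 bp on both sides of the start. Without conventional library 2 the counts were 4 lower and 4 higher. With 250 bp before and 50 bp after it 9 of the 15 could be tested, among them 3 of the 5, and 0 were called lower. The largest changes were at IGF1, a related growth factor, from 92.0% ± 4.81 to 26.6% ± 2.78, and at INS, the insulin gene next to IGF2, from 86.1% ± 10.6 to 45.0% ± 10.7 (SD, n = 3). IGFBP5, a binding protein, rose from 8.62% ± 1.16 to 37.2% ± 1.11, IGFBP1 fell from 18.5% ± 1.54 to 10.2% ± 5.18 and IGFBP2 rose from 0.993% ± 0.177 to 6.51% ± 4.21 (SD, n = 3). The rise at IGFBP2, 5.51 points, was 3.19 points without reset library 2 (adjusted p = 0.0147) and 2.80 points with 500 bp on both sides of the start (adjusted p = 0.00567). The call of IGFBP1 was lost without reset library 1 (-7.22 points) or reset library 3 (-6.38 points). Of these 15 promoters 13 were below 20% in conventional cells, where 47.1% of promoters were called lower and 9.29% higher.

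Among the genes beside H19 and IGF2, 8 of 11 promoters were lower, 2 higher and 1 neither, against 83.1% and 2.87% over all promoters. The 8 are not separate stretches throughout. The window of ENSG00000284779 has the same calls as the IGF2 promoter at 2170809, and those of MRPL23-AS1 and LINC01219 overlap. The higher pair was IGF2-AS and ASCL2, and ASCL2 lost its call without conventional library 3 (3.997 points), reset library 1 (4.73 points) or reset library 2 (6.30 points). The pair began at 1.56 and 12.2% in conventional cells, and among promoters below 20% there 9.29% were called higher. TH, which makes the first enzyme of catecholamine synthesis, fell from 91.0% ± 1.60 to 34.3% ± 3.72 and LSP1 from 93.1% ± 1.31 to 48.7% ± 9.24 (SD, n = 3). The noncoding genes ENSG00000240801 and LINC01219 fell to 44.8% ± 6.39 and 48.2% ± 10.5 (SD, n = 3). These ended well above the control region.

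Of 8 genes whose products bind or keep imprinted marks 6 had a lower promoter, against 83.1% of all promoters, and 2, CTCF and ZNF445, did not pass the threshold. ZNF445 passed it without reset library 2 (-4.33 points, adjusted p = 0.0477). Of these 8 promoters 5 were below 20% in conventional cells, where 47.1% of promoters were called lower and 9.29% higher. CTCF was unmethylated in both states, at 0.847% ± 0.736 and 0.596% ± 0.463 (SD, n = 3). ZFP57, a zinc finger protein that guards imprinted marks, fell from 95.4% ± 3.34 to 11.6% ± 5.94, and DPPA3, an oocyte factor, from 79.9% ± 10.1 to 4.41% ± 4.02 (SD, n = 3). CTCFL, a germline relative of CTCF, fell from 82.5% ± 7.45 to 43.0% ± 10.2 (SD, n = 3). DNMT1, the maintenance methyltransferase, fell by 13.6 points and TRIM28, the corepressor that ZFP57 recruits, by 12.2 points, but nearer the start neither was called. With 500 bp on both sides the changes were -2.32 points (adjusted p = 0.0844) and -0.231 points (adjusted p = 0.603). RNA was not measured in these files, so levels of the transcripts are not known from them.

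Of the promoters of 14 other imprinted genes, all outside the interval, 8 were lower, 1 higher and 5 neither, against 83.1% and 2.87% over all promoters. Not every one of these windows was intermediate in conventional cells, since PEG3 began at 87.2% and L3MBTL1 at 12.6%. PEG3, GRB10, PLAGL1 and SNRPN ended at 6.27% ± 0.499, 8.56% ± 1.43, 11.3% ± 3.17 and 3.83% ± 2.88 (SD, n = 3), and NAP1L5 at 16.1% ± 4.21. KCNQ1OT1, also on chromosome 11 with its start at 2721233, fell from 47.4% ± 2.92 (SD, n = 3) to 40.3, 23.7 and 18.6%. It was not called from 250 bp before to 50 bp after its start (-23.4 points). DIRAS3 was higher, at 45.0% ± 5.52 against 56.6% ± 7.52 (SD, n = 3), with groups that overlapped, and lost its call without reset library 1 (9.05 points). Its rise of 11.5 points was 18.4 points with 500 bp on both sides of the start. It was 34.8 points from 250 bp before to 50 bp after the start. MEST, PEG13, GNAS-AS1 and ZNF597, named after their values were seen, had no call and stood at 40, 44.4, 40.4 and 52.1% in reset cells. Without conventional library 3 MEST was called lower (-14.6 points) and ZNF597 higher (15.2 points). ZNF597 was also called higher without reset library 2 (14.6 points, adjusted p = 0.0136) and with the replicate number as a block (9.82 points, adjusted p = 0.0452). The list had a median of 47.2% in conventional and 15.1% in reset cells. The control region, at 1.67%, lay below PEG3, GRB10, PLAGL1, SNRPN and NAP1L5, but it is not a promoter window like theirs. In such a window H19 ended at 7.14% ± 1.71 (SD, n = 3). That is above PEG3 and SNRPN and below GRB10, PLAGL1 and NAP1L5. PEG10, looked at because it ended lower than the control region, went from 14.8% ± 6.15 to 0.822% ± 0.493 (SD, n = 3).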

How the data were processed

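DNA of H9 cells was bisulfite sequenced in 6 libraries. Reads were trimmed by the authors (Trim Galore) and mapped to GRCh37 (Bismark). For each library and cytosine they deposited raw counts of methylated and of unmethylated calls. The percent deposited beside these counts was not used. The submitters' processing notes name Bismark 0.9.0 with Bowtie2, whereas the paper's methods give an earlier version of Bismark. Removal of duplicate reads is not given in the sources used here, so a fragment that was amplified may have been counted more than once.

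Positions were at a CpG of GRCh37 in 99.8% of cases when counted from 0, and printed coordinates count from 1. Calls of both strands were added up per CpG, from 70329213 to 98004161 calls per library. Tiles of 500 bp, promoters (1000 bp upstream to 500 bp downstream of a start) and gene bodies (from 500 bp downstream to the end) were tested over the whole genome if each library had 10 or more calls. The test was a quasi-binomial logistic model with a likelihood-ratio F test, with the dispersion squeezed by limma 3.58.1 and kept at 1 or more. Squeezing draws the spread of a feature toward that of all features, so these p-values do not rest on its own libraries alone. Adjusted p-values are by Benjamini and Hochberg, with a threshold of 0.05, and the method was also tested on simulated calls. Levels of regions were compared with an exact permutation test over libraries. Sequences are from the GRCh37 reference, genes from GENCODE release 44 mapped to it, and scripts ran in Python 3.11.15 and R 4.3.3.

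The members, gene lists and tests were chosen with earlier results of these data known. The plan placed the H19 start at the canonical transcript, which begins beyond the control region, so the start of the largest group of transcripts was used in its place after the annotation had been seen, and the plan's start is given as an alternative. Named were the control region and its tiles, the first 12 further tiles near 50% by position, the IGF2 starts, the CTCF matches, the 5 highest and 5 lowest reset levels among tiles over 80%, every tile called higher, and up to 5 called promoters per list by size of change. Other promoters, the tiles near 50% in IGF2 and the tile at 2067501 were named after their values had been seen. Other minimum numbers of calls, tile offsets, level bounds, promoter bounds, tests and sets of libraries were tried as alternatives.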

Additional observations from a re-analysis of the deposited data

How the results depend on the processing

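At 2.16 to 2.55 calls per CpG a tile rests on few reads, and with 3 libraries a group no exact test over libraries can give p below 0.1. Feeder cells, copy number and the parental copies were not tested. The falls at the H19 promoter, H19 body and IGF2 body kept their direction and their call under every alternative run on them. The control region kept its direction, with an exact permutation p = 0.1 throughout. For the control region the change ran from -63.9 points (CpGs with at least 3 calls in every library) to -37.3 (without conventional library 1). The former setting keeps only the better covered CpGs, since libraries had 2.16 to 2.55 calls per CpG, and does not stand for the whole region. The change of its difference from the rest of the interval ran from -10.8 to 2.09 points with a library left out. Counted from the canonical H19 start, the window lies wholly beyond the control region. That other stretch changed by -32.8 points, and its difference from the rest by 7.30 points. With at least 20 calls in every library 93 of the 115 tiles left were called lower, and the reset median of the tiles near 50% was 6.05%. This median was 19.6% with tiles shifted by 250 bp, 11.0% for tiles at 40 to 60%, 15.2% for tiles at 25 to 75% (41 of 50 called lower), and 7.57 to 13.5% with a library left out. Tiles called higher numbered 5 by Fisher's exact test, 5 with tiles shifted by 250 bp and 1 with each tile's own dispersion. The causes of these moves were not tested.

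The IGF2 promoter, at 3.23 points, passed the threshold with a replicate block (adjusted p = 0.0386, quasi-binomial test), without conventional library 1 (4.06 points) and without reset library 3 (4.55 points), and its change ran from 1.84 to 4.55 with a library left out. The replicate block gave 207 tiles lower, 4 higher and 18 of the 23 near 50% lower. Same-numbered libraries did not deviate together, with correlations of -0.0005, -0.0001 and -0.0005 over tiles, so the numbers were not taken to pair them. In promoters cut to 250 bp before and 50 bp after the start 0 of 9 tested pathway and 2 of 7 insulator and imprint keeper promoters were called lower. So were 3 of 6 neighbouring and 6 of 13 other imprinted promoters. The rest of these lists, with H19 and IGF2, had too few calls to be fitted. Of the 8 neighbouring promoters lower in the wider window 3 could be tested. With 500 bp on both sides 2 pathway promoters were lower, and with a library left out 3 to 5. The change turned to a rise of 0.22 points at IGFBP1, 0.64 at UHRF1 and 0.49 at DNMT1 in the shortest window and of 1.32 at INSR with 500 bp on both sides, none of them past the threshold. Of the named tiles, 2030501 and 2168501 lost their call with the replicate block, 2154001, 2161001 and 2168501 with at least 20 calls, and 2030501, 2057501, 2154001, 2161001, 2161501, 2168501 and 2171001 with their own dispersion, where 15 of the 23 tiles near 50% were lower.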
